A study of Mus musculus with 300 samples.

Results

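The enzymes described here are 3 acyltransferases of triglyceride synthesis, Mogat1, Dgat1 and Dgat2, taken by name from the 18193 genes that the arrays measured with at least 1 probe set of a known gene. Their gene IDs are 68393 for Mogat1, 13350 for Dgat1 and 67800 for Dgat2, and where a gene had several probe sets the brightest on average stood for it. Each was followed in liver, heart, kidney and skeletal muscle of 75 mice, which gave 300 arrays. Mice received vehicle (10 per day of sampling) or 10 mg/kg of WY14643, GW501516 or rosiglitazone by mouth (5 per compound and day) for 4, 8 or 15 days. WY14643 is an agonist of PPAR-alpha, GW501516 of PPAR-delta and rosiglitazone of PPAR-gamma, nuclear receptors that switch on genes of fatty acid handling. The labels used here name no allele or transgene and give no strain, sex or age.

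Triglyceride is built by adding fatty acids to a glycerol backbone. Mogat1 (monoacylglycerol acyltransferase 1) attaches a fatty acid to monoacylglycerol and so makes diacylglycerol, and Dgat1 and Dgat2 attach the last fatty acid to diacylglycerol. Dgat1 belongs to the same family as the sterol acyltransferases, whereas Dgat2 is related to the monoacylglycerol acyltransferases. The liver stores triglyceride in lipid droplets and exports it in lipoproteins, and in liver the PPAR family is best known for control of fatty acid oxidation by PPAR-alpha.

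In GRCm38.p6, Mogat1 lies on chromosome 1 from 78511060 to 78606964, Dgat2 on chromosome 7 from 99153663 to 99182713 and Dgat1 on chromosome 15 from 76502012 to 76512021. Of the 3 genes, Mogat1 matched an entry of the RefSeq promoter table. The 250 bases upstream of its start, chr1:78510810-78511059 on the + strand, are shown because Mogat1 is the gene that the liver results turn on.
Mogat1 upstream: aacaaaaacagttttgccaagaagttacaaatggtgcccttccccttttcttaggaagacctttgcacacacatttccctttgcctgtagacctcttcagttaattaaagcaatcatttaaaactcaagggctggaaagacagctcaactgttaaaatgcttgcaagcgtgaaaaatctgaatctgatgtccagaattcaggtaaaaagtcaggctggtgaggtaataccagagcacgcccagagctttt
PPARs bind repeats of the hexamer AGGTCA, so this hexamer, and its direct repeat with 1 base between the copies, were searched on both strands. Neither was found in this window, which is therefore printed without capitals. Among the 32851 windows of the same length in the table, 14% held the hexamer, which is also part of the repeat, and 0.0335% held the exact direct repeat.

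Values are log2 intensities normalized by the submitters, and an effect is treated minus vehicle of the same day on that scale, as the mean of 3 daily differences where no day is given, with its standard error (SE). A gene is called where limma's moderated test, adjusted by Benjamini-Hochberg over all 18193 genes, gave p under 0.05. Each tissue's own markers lay high among all genes, with a median percentile of 99.96 for 8 hepatocyte genes in liver, 99.94 for 7 cardiomyocyte genes in heart, 98.2 for 7 kidney genes in kidney and 99.96 for 7 myofibre genes in skeletal muscle. Markers of other tissues were also present in some heart, kidney and skeletal muscle arrays and are given beside the results they accompany. In these bulk samples, a change in the share of a cell type and a change in RNA per cell cannot be told apart. The labels number the mice, so replicates are separate animals, and p-values cover the spread between them. The same vehicle arrays served all 3 compounds of a day. Counts of treated arrays above or below all vehicle arrays of a day are descriptions. The share of all genes that separated in the same way was not counted.

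Mogat1 was raised in liver by all 3 agonists, in the order WY14643, GW501516 and rosiglitazone. In vehicle livers its log2 level ran from 5.83 to 8.07 on day 4 (median 6.66, n = 10), from 5.98 to 7.56 on day 8 (median 6.62) and from 6.08 to 7.78 on day 15 (median 6.48). After WY14643 the levels were 10.22, 10.01, 10.78, 10.48 and 10.85 on day 4, 12.26, 11.19, 11.42, 11.72 and 10.53 on day 8, and 11.68, 11.24, 10.90, 11.34 and 11.18 on day 15. Every one of these 15 livers was above every vehicle liver of its day.

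After GW501516 the Mogat1 levels were 9.47, 9.21, 8.23, 9.19 and 8.76 on day 4, 9.46, 10.15, 10.86, 9.32 and 8.50 on day 8, and 8.17, 10.64, 10.72, 10.71 and 10.28 on day 15. All 15 were again above the vehicle livers of the same day, although 1 liver of day 15 (8.17) was far below the other 4 of its group. After rosiglitazone they were 7.62, 7.78, 9.76, 9.14 and 8.11 on day 4, 7.19, 9.04, 8.08, 7.04 and 7.43 on day 8, and 8.49, 7.13, 7.69, 7.49 and 7.0 on day 15. Here the groups overlapped on each day, with 3, 2 and 1 of 5 livers above all vehicle livers on days 4, 8 and 15.

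**Figure D1:**
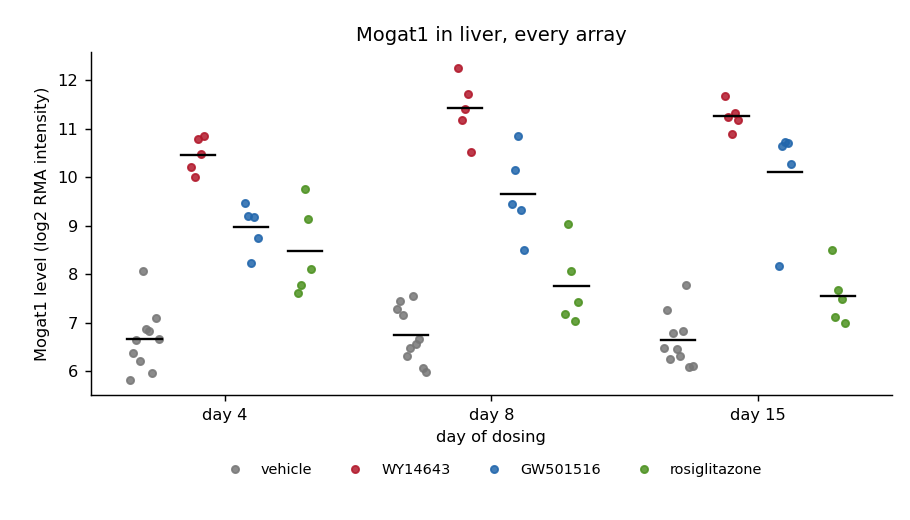
Mogat1 level (log2 RMA intensity, vertical axis) in each liver array by day of dosing and compound; points are mice and black lines are group means. WY14643 and GW501516 livers lie above all vehicle livers of their day, and rosiglitazone livers overlap with them.

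The mean Mogat1 effect in liver was 4.37 ± 0.21 (SE, n = 15 treated and 30 vehicle arrays) for WY14643, a 20.7-fold rise (limma adjusted p = 1.2e-27). It was 2.89 ± 0.21 or 7.44-fold for GW501516 (limma adjusted p = 2.28e-18) and 1.25 ± 0.21 or 2.38-fold for rosiglitazone (limma adjusted p = 3.9e-06). All 15 livers of each compound exceeded the vehicle mean of their day. Ordered by size of rise, Mogat1 ranked 2 of 18193 genes for WY14643, 4 for GW501516 and 19 for rosiglitazone. Of all genes, 11.2%, 13.9% and 16.2% were called for the 3 compounds in that order.

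By day, the WY14643 effect on liver Mogat1 was 3.81 on day 4, 4.67 on day 8 and 4.63 on day 15 (SE 0.36 each), and the gene was called each day against 6.45%, 6.32% and 2.86% of all genes. The GW501516 effect was 2.31, 2.90 and 3.47 on the 3 days and was called each day, against 1.35%, 8.83% and 4.42% of all genes. The rosiglitazone effect was 1.82 on day 4, 1.01 on day 8 and 0.92 on day 15. It was called on day 4 (limma adjusted p = 0.00238) and at the margin on day 8 (limma adjusted p = 0.0498), and missed the threshold on day 15 (limma adjusted p = 0.128), where 1.23%, 12.8% and 5.34% of all genes were called on the 3 days. The day 8 call ended in 10 of the fits that left out 1 array of the day, with the lowest effect, 0.68, without rosiglitazone replicate 2.

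The change in the effect from day 4 to day 15 was not called for Mogat1 with any compound. Day 15 minus day 4 was 0.82 for WY14643 (95% confidence interval -0.19 to 1.83), 1.15 for GW501516 (0.15 to 2.16, limma adjusted p = 0.626) and -0.90 for rosiglitazone (-1.91 to 0.11). For this contrast 0.753%, 0% and 0.132% of all genes were called. With GW501516 that count of 0 compares with 1214 genes at an unadjusted p under 0.05 in limma. The order of the days within a compound was thus not told apart by the test.

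The 3 compounds, which were given at the same dose and days, were also compared with each other in 3 pairs. In liver, Mogat1 was 1.48 higher after WY14643 than after GW501516 (SE 0.24, 95% interval 1.0 to 1.95, limma adjusted p = 2.35e-05), where 4.55% of all genes were called. It was 3.12 higher after WY14643 than after rosiglitazone (17.6% of all genes called) and 1.64 higher after GW501516 than after rosiglitazone (95% interval 1.17 to 2.12, limma adjusted p = 1.65e-06, 3.59% called). All 3 steps in the order thus passed the test. Over the pairs, 9 member comparisons were made in each tissue.

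**Figure D2:**
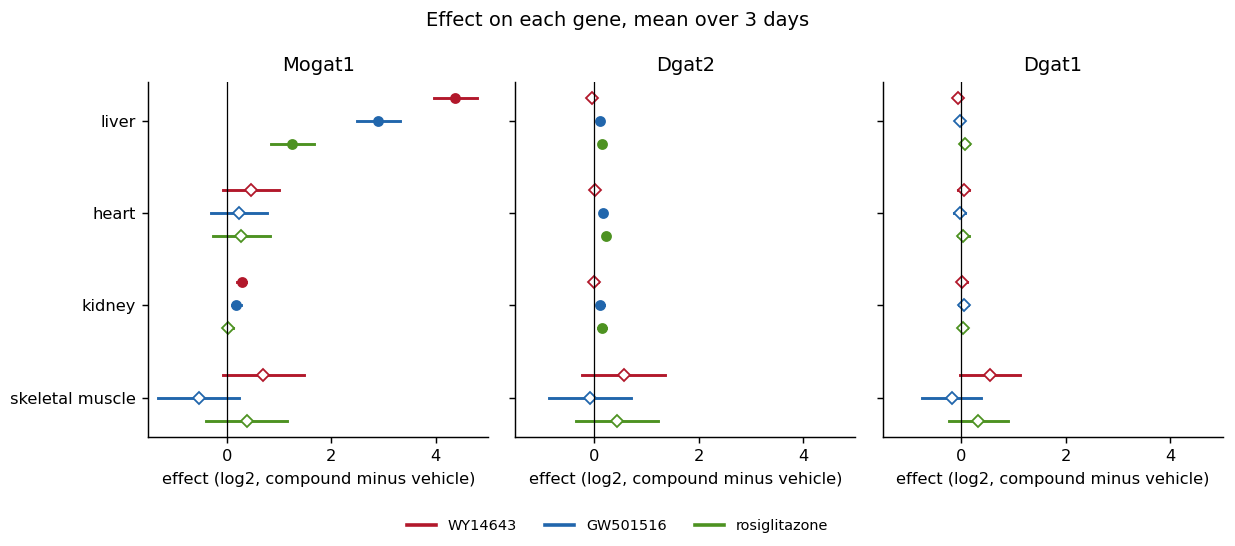
Effect of each compound on each gene (log2, compound minus same-day vehicle, mean over 3 days, horizontal axis) in the 4 tissues; bars are 95% confidence intervals, filled circles are called genes and open diamonds are not. Mogat1 in liver stands at 4.37, 2.89 and 1.25, whereas all called Dgat2 effects lie between 0.11 and 0.23.

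Adipocyte markers were near the bottom of the scale in liver in every group. The mean of 3 adipocyte markers (Adipoq, Lep and Retn) stayed between 3.66 and 4.52 over all liver arrays, with medians of 4.00 in vehicle, 4.11 after WY14643, 4.05 after GW501516 and 3.92 after rosiglitazone. The level of 8 hepatocyte markers lay between 14.21 and 14.35. With 2 components of 17 circadian clock genes as covariates, the Mogat1 effect was 4.39 for WY14643 and 2.83 for GW501516, and for rosiglitazone it was 1.24 with an SE of 0.43 and was no longer called (limma adjusted p = 0.344).

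The liver genes whose pattern over the 75 arrays was most like that of Mogat1 were Ehhadh (Pearson r = 0.91), Acot2 (0.89), Ech1 (0.89), Vnn1 (0.89) and Hsd17b11 (0.89). Ehhadh and Ech1 are enzymes of fatty acid beta-oxidation, and Acot2 is an acyl-CoA thioesterase of mitochondria. These correlations are descriptions over arrays that share treatments, with no test. Between the members themselves, r was -0.09 for Mogat1 and Dgat1, 0.03 for Mogat1 and Dgat2, and 0.53 for Dgat1 and Dgat2.

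Among the 18193 genes of the 30 vehicle arrays of a tissue, the mean level of Mogat1 stood at percentile 98.9 in kidney, 51.0 in skeletal muscle, 44.3 in liver and 31.0 in heart. In vehicle kidneys its log2 level ran from 12.12 to 12.53 on day 4 (median 12.32), from 12.10 to 12.55 on day 8 (median 12.25) and from 12.06 to 12.54 on day 15 (median 12.20). After WY14643 the kidney levels were 12.63, 12.44, 12.54, 12.71 and 12.44 on day 4, 12.71, 12.51, 12.63, 12.72 and 12.46 on day 8, and 12.75, 12.66, 12.46, 12.50 and 12.42 on day 15. The groups overlapped on each day, with 3, 3 and 2 of 5 treated kidneys above all vehicle kidneys.

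After GW501516 kidney Mogat1 was 12.60, 12.24, 12.35, 12.34 and 12.42 on day 4, 12.56, 12.31, 12.72, 12.56 and 12.44 on day 8, and 12.32, 12.52, 12.68, 12.63 and 12.41 on day 15. The mean effect was 0.29 ± 0.04 for WY14643 (higher than the vehicle mean in 15 of 15 kidneys, limma adjusted p = 5.6e-06). It was 0.19 ± 0.04 for GW501516 (13 of 15 kidneys, limma adjusted p = 0.00432) and 0.03 ± 0.04 for rosiglitazone (7 of 15, limma adjusted p = 0.987). Of all genes, 1.74%, 6.79% and 1.52% were called in kidney for the 3 compounds.

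By day, the kidney effect on Mogat1 was 0.24, 0.29 and 0.32 for WY14643 and 0.08, 0.21 and 0.28 for GW501516. In the main fit it was called on day 15 alone for each (limma adjusted p = 0.02 and 0.046). On day 8 the WY14643 effect was called with genes under the 40th percentile left out (0.29, limma adjusted p = 0.0353) and with array weights (0.31). Some fits that left out 1 array of day 8 also called it, for WY14643 and for GW501516. The GW501516 call of day 15 ended in 10 of the fits that left out 1 array of that day (effects from 0.24 to 0.30). It also ended with quantile normalization (0.27), clock components (0.30), and adipocyte and hepatocyte markers (0.27). The WY14643 call of day 15 ended without replicate 1 (0.28) or replicate 2 (0.30). On days 4, 8 and 15, 0.275%, 0.506% and 0.544% of all genes were called for WY14643, 0.17%, 9.36% and 1.33% for GW501516, and 0%, 0.753% and 0.132% for rosiglitazone, whose day 4 count of 0 in limma compares with 518 genes at an unadjusted p under 0.05. Between compounds, kidney Mogat1 was 0.25 higher after WY14643 than after rosiglitazone (SE 0.05, limma adjusted p = 0.000978, 1.95% of all genes called), and the call ended narrowly with clock components as covariates (0.23, limma adjusted p = 0.0534). WY14643 minus GW501516 was 0.10 (limma adjusted p = 0.342, 1.34% called) and GW501516 minus rosiglitazone 0.16 (0.05 to 0.26, 1.12% called), and neither was called.

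In heart, Mogat1 was not called for any compound. Vehicle hearts had log2 levels from 5.35 to 7.90 on day 4 (median 5.99), from 5.58 to 7.88 on day 8 (median 6.35) and from 6.07 to 6.91 on day 15 (median 6.33). The mean effects were 0.46 ± 0.27 for WY14643, 0.24 ± 0.27 for GW501516 and 0.28 ± 0.27 for rosiglitazone (limma adjusted p = 0.461, 0.774 and 0.591; 1.44%, 4.17% and 7.51% of all genes called).

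A few hearts stood far above the others in Mogat1, and they carried markers of other tissues. The highest level, 10.06 in rosiglitazone day 4 replicate 1, occurred in the heart that ranked 1 of 75 for adipocyte markers and 1 of 75 for brown adipocyte markers (Ucp1, Cidea and Elovl3). The next, 9.83 in WY14643 day 4 replicate 3, was in the heart that ranked 1 for 7 kidney markers, and the third, 9.02 in GW501516 day 15 replicate 1, ranked 2 for adipocyte and 4 for kidney markers. The kidney marker mean ran from 4.46 to 9.0 over the heart arrays. Among all genes in heart, the median percentile was 54.5 for 8 hepatocyte markers, 36.6 for the adipocyte markers and 25.3 for the kidney markers.

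Over all 75 hearts, deviations of Mogat1 from its group means went with those of the kidney markers, with Pearson r = 0.77 and Spearman rho = 0.72 (permutation p = 1e-05 for each, the smallest that 100000 permutations can give; adjusted over 45 relations, 3.75e-05 and 5.62e-05). Without the 2 hearts farthest from the median r was 0.71. Against adipocyte markers r was 0.52 and rho 0.44 (adjusted permutation p = 3.75e-05 and 0.000409), and r was 0.28 without 2 hearts. Against hepatocyte markers r was -0.23 and rho -0.14 (adjusted permutation p = 0.1 and 0.321). For Dgat1 and Dgat2 in heart, r with hepatocyte markers was -0.17 and 0.08. With adipocyte, hepatocyte and kidney markers as covariates, an alternative chosen after these arrays had been seen, the heart effects on Mogat1 were 0.22, -0.28 and 0.23 for WY14643, GW501516 and rosiglitazone, and none was called.

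The liver response of Mogat1 was then compared with that of the other tissues in the same mice. The liver effect of WY14643 exceeded the heart effect by 3.91 ± 0.37, the kidney effect by 4.08 ± 0.20 and the muscle effect by 3.67 ± 0.42, all called, where 6.52%, 4.69% and 3.52% of all genes were called. For GW501516 the differences were 2.65 ± 0.37, 2.71 ± 0.20 and 3.43 ± 0.42, again all called (10.2%, 8.18% and 4.26% of all genes). For rosiglitazone the liver effect exceeded that in kidney by 1.22 ± 0.20 and was called, although not with the clock components as covariates (1.36, limma adjusted p = 0.511). The differences from heart, 0.97 ± 0.37 (limma adjusted p = 0.0747), and from muscle, 0.87 ± 0.42 (limma adjusted p = 0.248), were not called, but passed with adipocyte and hepatocyte markers as covariates (1.09 and 1.11), and the difference from heart also without rosiglitazone day 4 replicate 1 (1.29) or day 8 replicate 4 (1.15), where 12.5%, 7.22% and 6.08% of all genes were called for heart, kidney and muscle. For Dgat1 and Dgat2, no difference between liver and another tissue was called.

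Dgat2, which attaches the last fatty acid of triglyceride, was slightly higher after GW501516 and rosiglitazone in liver, heart and kidney, and its mean effect for WY14643 was called in no tissue. In vehicle livers its log2 level ran from 13.42 to 13.62 on day 4 (median 13.51), from 13.22 to 13.44 on day 8 (median 13.34) and from 13.17 to 13.51 on day 15 (median 13.37). Vehicle livers of day 8 were thus lower than those of day 4 by -0.18 ± 0.04 (limma adjusted p = 0.00174, 9.73% of all genes called) and those of day 15 by -0.16 ± 0.04 (limma adjusted p = 0.0104, 4.06% called). The day 15 difference was -0.16 and not called in the second Dgat2 probe set (limma adjusted p = 0.248), nor in the mean of both (0.0818). With the clock components as covariates it was -0.04 and not called.

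After rosiglitazone liver Dgat2 was 13.61, 13.45, 13.56, 13.59 and 13.56 on day 4, 13.59, 13.62, 13.63, 13.67 and 13.54 on day 8, and 13.58, 13.63, 13.52, 13.59 and 13.49 on day 15. On day 8 all 5 were above the vehicle livers, on day 15 4 were, and on day 4 none was. After GW501516 it was 13.59, 13.43, 13.53, 13.59 and 13.59 on day 4, 13.37, 13.53, 13.51, 13.53 and 13.42 on day 8, and 13.54, 13.64, 13.61, 13.51 and 13.50 on day 15, with 0, 3 and 4 of 5 above all vehicle livers. After WY14643 it was 13.37, 13.22, 13.45, 13.39 and 13.29 on day 4, 4 of them below every vehicle liver, then 13.23 to 13.57 on day 8 and 13.17 to 13.59 on day 15.

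The liver effect on Dgat2 was 0.16 ± 0.03 for rosiglitazone (1.12-fold, 14 of 15 livers above the vehicle mean, limma adjusted p = 1.08e-05). It was 0.11 ± 0.03 for GW501516 (14 of 15 livers, limma adjusted p = 0.00241) and -0.03 ± 0.03 for WY14643 (6 of 15, limma adjusted p = 0.581). By day, the rosiglitazone effect was 0.03, 0.26 and 0.20 on days 4, 8 and 15, and was called on days 8 and 15. The GW501516 effect was 0.02, 0.13 and 0.20, called on day 15. In the second Dgat2 probe set it was called on day 8 as well (0.35, limma adjusted p = 0.00933), as in the mean of both (0.24, limma adjusted p = 0.0147). The WY14643 effect was -0.18, 0.05 and 0.04, called on day 4 (limma adjusted p = 0.0124), and without WY14643 day 4 replicate 2 it was -0.15 and no longer called (limma adjusted p = 0.089), as with array weights (-0.15, limma adjusted p = 0.0636). No change in effect from day 4 to day 15 was called, with 0.22 (95% interval 0.08 to 0.36) for WY14643, 0.18 for GW501516 and 0.17 for rosiglitazone.

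Liver Dgat2 was lower after WY14643 than after GW501516 (difference -0.15, 95% interval -0.21 to -0.08, limma adjusted p = 0.00288) and lower than after rosiglitazone (difference -0.19, -0.26 to -0.13, limma adjusted p = 6.11e-06). GW501516 minus rosiglitazone was -0.05 (-0.11 to 0.02) and was not called. With the clock components as covariates the first differences were -0.03 and -0.06 and neither was called. A second Dgat2 probe set gave liver effects of 0.24 for GW501516 and 0.33 for rosiglitazone, both called, and -0.09 for WY14643, not called.

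**Figure D3:**
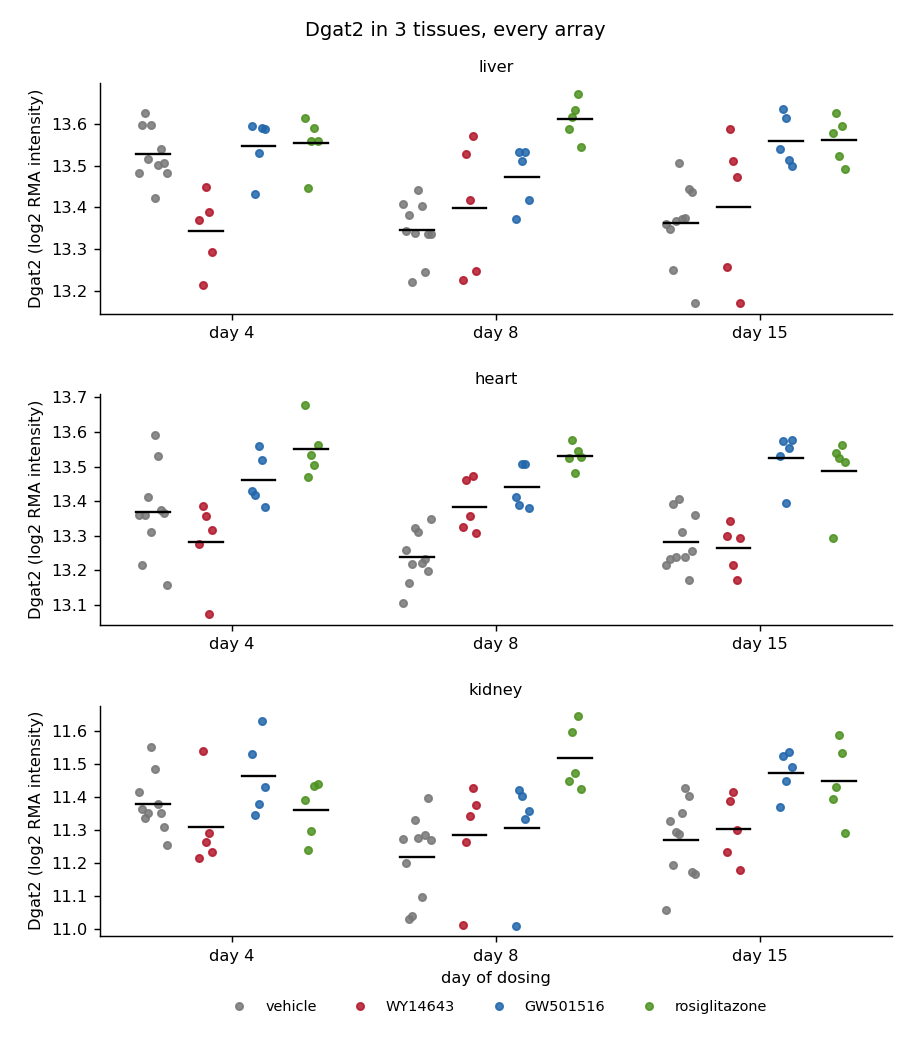
Dgat2 level (log2 RMA intensity, vertical axis) in each array of liver, heart and kidney by day and compound; points are mice, black lines group means, and the axes differ between tissues. The vehicle means of day 8 lie below those of day 4 in each tissue, and GW501516 and rosiglitazone means lie above vehicle on days 8 and 15.

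Heart gave the same pair of responses. Vehicle hearts had Dgat2 levels from 13.16 to 13.59 on day 4 (median 13.36), from 13.10 to 13.35 on day 8 (median 13.23) and from 13.17 to 13.41 on day 15 (median 13.25). After rosiglitazone they were 13.68, 13.47, 13.53, 13.50 and 13.56 on day 4, 13.52, 13.58, 13.48, 13.55 and 13.53 on day 8, and 13.29, 13.54, 13.52, 13.56 and 13.51 on day 15. After GW501516 they were 13.43, 13.42, 13.56, 13.52 and 13.38 on day 4, 13.41, 13.39, 13.51, 13.51 and 13.38 on day 8, and 13.53, 13.57, 13.39, 13.55 and 13.58 on day 15. For both compounds all 5 hearts were above vehicle on day 8 and 4 of 5 on day 15, a description with no count over all genes beside it.

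The mean heart effect on Dgat2 was 0.23 ± 0.03 for rosiglitazone (limma adjusted p = 8.52e-09) and 0.18 ± 0.03 for GW501516 (limma adjusted p = 6.52e-06), with 15 of 15 hearts above the vehicle mean for each. For WY14643 it was 0.01 ± 0.03 (9 of 15). By day, the rosiglitazone effect was 0.18, 0.29 and 0.20, called on days 8 and 15, and the GW501516 effect was 0.09, 0.20 and 0.24, called on days 8 and 15. Of all genes, 0.22%, 4.18% and 1.09% were called on the 3 days for rosiglitazone and 0.126%, 1.63% and 0.764% for GW501516. The GW501516 call of day 8 ended without replicate 3 or replicate 4 (effect 0.18 and 0.19), and the rosiglitazone call of day 15 without replicate 2 or replicate 4 (both 0.19). The second Dgat2 probe set gave mean heart effects of 0.27 for GW501516 and 0.36 for rosiglitazone, both called, but in it neither GW501516 on day 8 (0.31, limma adjusted p = 0.0575) nor rosiglitazone on day 15 (0.27, limma adjusted p = 0.16) was called.

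WY14643 minus GW501516 was -0.17 in heart (SE 0.03, limma adjusted p = 0.00137, 3.03% of all genes called) and WY14643 minus rosiglitazone -0.21 (limma adjusted p = 1.16e-05, 6.12% called), both called for Dgat2. With the clock components as covariates they were -0.05 and -0.04 and neither was called (limma adjusted p = 0.62 and 0.76). GW501516 minus rosiglitazone was -0.05 (95% interval -0.11 to 0.02) and was not called, in a pair where 0.044% of all genes were called. The heart effects on Dgat2 were 0.18 for GW501516 and 0.22 for rosiglitazone with adipocyte and hepatocyte markers as covariates, both called, and r between Dgat2 and the adipocyte markers was 0.03 in heart.

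In kidney, vehicle levels of Dgat2 ran from 11.25 to 11.55 on day 4 (median 11.36), from 11.03 to 11.40 on day 8 (median 11.27) and from 11.06 to 11.43 on day 15 (median 11.29). After rosiglitazone they were 11.39, 11.24, 11.30, 11.43 and 11.44 on day 4, 11.45, 11.60, 11.47, 11.65 and 11.42 on day 8, and 11.39, 11.43, 11.59, 11.53 and 11.29 on day 15, so that all 5 were above vehicle on day 8 and the groups overlapped on the other days. After GW501516 they were 11.53, 11.35, 11.38, 11.63 and 11.43 on day 4, 11.01, 11.42, 11.40, 11.33 and 11.36 on day 8, and 11.37, 11.52, 11.45, 11.54 and 11.49 on day 15, with overlap on each day.

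The kidney effect on Dgat2 was 0.15 ± 0.04 for rosiglitazone (13 of 15 kidneys, limma adjusted p = 0.0116), 0.13 ± 0.04 for GW501516 (12 of 15, limma adjusted p = 0.0253) and 0.01 ± 0.04 for WY14643. On single days it was called for rosiglitazone on day 8 (0.30, limma adjusted p = 0.00582) and, in the main fit, on no other day for any compound. In the second Dgat2 probe set the GW501516 effect was called on day 8 (0.30, limma adjusted p = 0.0206) and day 15 (0.37, limma adjusted p = 0.00519). It was also called on both days in the mean of both probe sets (0.19 and 0.29), and on day 15 with array weights (0.20). The mean rosiglitazone effect was 0.08 without day 8 and not called, the day 8 call ended without rosiglitazone replicate 4 (0.27), and the mean GW501516 call ended without GW501516 day 4 replicate 1 (0.12) or replicate 4 (0.11). No pair of compounds differed in kidney Dgat2 at the threshold, WY14643 minus rosiglitazone being -0.14 (95% interval -0.23 to -0.06, limma adjusted p = 0.0591) and WY14643 minus GW501516 -0.12 (-0.20 to -0.03), although both passed in the second Dgat2 probe set (-0.21 and -0.28). The second Dgat2 probe set gave kidney effects of 0.27 for GW501516 and 0.20 for rosiglitazone, both called.

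Some kidneys held markers of other tissues, and levels of Dgat2 went with those of brown adipocytes. The brown adipocyte marker mean ran from 2.57 to 8.07 over the kidneys, with medians of 3.30 in vehicle, 4.12 after WY14643, 4.04 after GW501516 and 3.49 after rosiglitazone. The kidney ranked 1 of 75 for them was GW501516 day 4 replicate 4, whose Dgat2 level was 11.63. Deviations of kidney Dgat2 from its group means correlated with these markers at r = 0.39 (Spearman rho = 0.33, adjusted permutation p = 0.00169 and 0.0114) and at 0.42 without 2 kidneys. With adipocyte and hepatocyte markers as covariates the kidney effects on Dgat2 were 0.12 for GW501516 and 0.16 for rosiglitazone, both called; brown adipocyte markers were not used as a covariate, and their part in the result was not tested.

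The mean of 4 pancreatic acinar markers was at most 3.52 in vehicle and 3.42 in rosiglitazone kidneys. It was 11.74 in WY14643 day 4 replicate 2 and 7.75 in GW501516 day 4 replicate 4, kidneys with Mogat1 at 12.44 and 12.34 and Dgat2 at 11.54 and 11.63. Leaving out any 1 mouse kept the mean kidney effect on Mogat1 between 0.27 and 0.30 for WY14643 and between 0.17 and 0.21 for GW501516, called throughout.

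The level of Dgat2 went with that of circadian clock genes in these 3 tissues. Among all genes in liver, those most like Dgat2 over the 75 arrays were Cry2 (Pearson r = 0.82), a repressor of the clock, Smarcd2 (0.78), Pcsk4 (0.78), Tef (0.77), a transcription factor under clock control, and Gys2 (0.77), the liver glycogen synthase. The first component of 17 clock genes, signed so that it is high where Dbp is high and scaled to SD over the 75 arrays of a tissue, had vehicle means in liver of 0.59 on day 4, -1.38 on day 8 and -0.62 on day 15. Its means were 0.71, 0.59 and 0.78 after GW501516, 0.49, 0.91 and 0.80 after rosiglitazone, and -1.43, 0.19 and -0.23 after WY14643.

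The clock component and Dgat2 were thus both low in vehicle livers of day 8 and in WY14643 livers of day 4. Of the 17 clock genes, 8 rose and 4 fell in liver after GW501516 and likewise after rosiglitazone, and 1 rose and 1 fell after WY14643. Over all genes, 13.9%, 16.2% and 11.2% were called in liver for GW501516, rosiglitazone and WY14643, so the WY14643 count is near the share of all genes. Deviations of Dgat2 from its group means correlated with those of the component at r = 0.57 in liver (Spearman rho = 0.60), 0.43 in heart (rho = 0.49) and 0.52 in kidney (rho = 0.50), over 75 arrays each (adjusted permutation p for r = 3.75e-05, 0.000519 and 3.75e-05 in that order, among 45 relations). Without the 2 arrays farthest from the median r was 0.54, 0.45 and 0.52.

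With the first 2 clock components as covariates no mean effect on Dgat2 was called in these tissues. The liver effect was -0.01 for GW501516 and 0.03 for rosiglitazone, the heart effect 0.03 and 0.02, and the kidney effect 0.02 and 0.06, and the WY14643 effect on liver of day 4 was 0.01. That adjustment lowered the number of genes called in liver for rosiglitazone from 2946 to 31 and for GW501516 from 2532 to 485, while for WY14643 it was 2044 before and 2135 after. The time of day of sampling is not in the labels, and its part in the Dgat2 result was not tested.

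**Figure D4:**
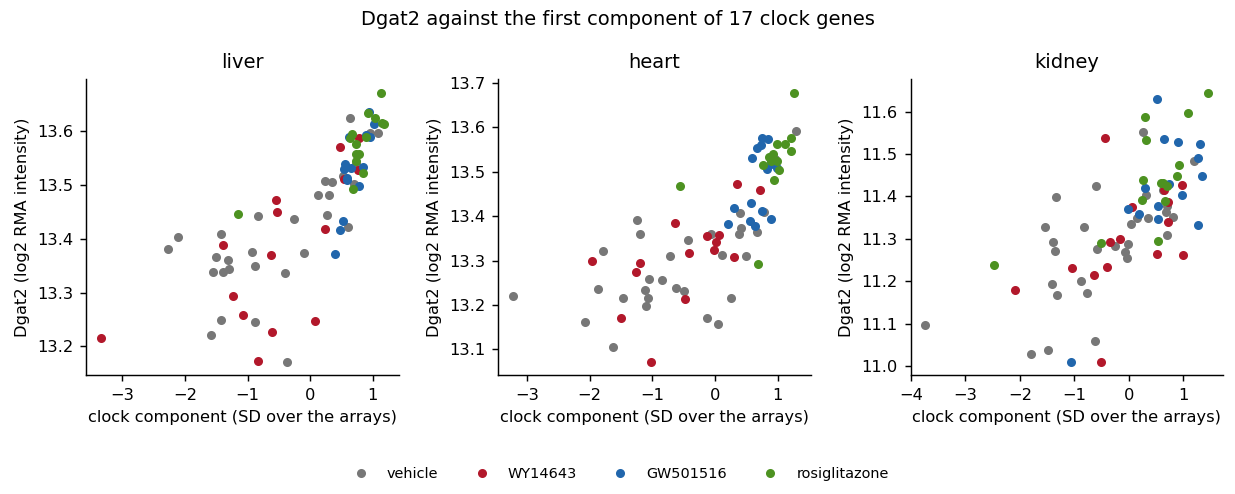
Dgat2 level (log2 RMA intensity, vertical axis) against the first component of 17 clock genes (SD over the arrays, horizontal axis) in liver, heart and kidney; each point is an array, coloured by compound. With group means removed, r is 0.57 in liver, 0.43 in heart and 0.52 in kidney.

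Dgat1, the other enzyme of the last step, was called for none of the 12 combinations of tissue and compound in limma, and 1 of the 12 had an unadjusted p under 0.05. From 0.104% to 16.2% of all genes were called in these combinations, so most genes were likewise not called in any one of them. In vehicle livers its log2 level ran from 9.71 to 10.06 on day 4 (median 9.94), from 9.74 to 10.09 on day 8 (median 9.90) and from 9.75 to 10.09 on day 15 (median 9.86). After rosiglitazone it was 9.98, 9.96, 10.11, 9.99 and 9.84 on day 4, 9.92, 9.99, 10.00, 9.90 and 10.01 on day 8, and 10.04, 10.03, 9.93, 10.06 and 10.02 on day 15. These livers lay within the vehicle range with 1 exception, the 10.11 of day 4.

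The liver effect on Dgat1 was 0.08 ± 0.03 for rosiglitazone (14 of 15 livers above the vehicle mean, 95% interval 0.02 to 0.15, limma adjusted p = 0.0754), -0.02 ± 0.03 for GW501516 and -0.06 ± 0.03 for WY14643. It passed the threshold for rosiglitazone in the second Dgat1 probe set (0.17, limma adjusted p = 0.0455), in the mean of both probe sets (0.13), where dim genes were left out, and in 3 of the fits that left out 1 liver. Dgat1 was lower after WY14643 than after rosiglitazone in liver (difference -0.14 ± 0.04, limma adjusted p = 0.00458), and the difference was -0.09 and not called with the clock components as covariates. With group means removed, liver Dgat1 too correlated with the clock component, at r = 0.36 (Spearman rho = 0.36, adjusted permutation p = 0.00397 and 0.0045). Without the 2 farthest arrays r was 0.44. In heart and kidney r was 0.05 and 0.10. In heart the effects on Dgat1 were between -0.03 and 0.05 and in kidney between 0.03 and 0.05.

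Heart Dgat1 had its highest levels in the 2 hearts that also led in adipocyte markers, 11.74 in rosiglitazone day 4 replicate 1 and 11.05 in GW501516 day 15 replicate 1, where the median heart was at 10.51. Over the 75 hearts, deviations of Dgat1 correlated with brown adipocyte markers at r = 0.83 (Spearman rho = 0.37, adjusted permutation p = 3.75e-05 for r), and at 0.50 without the 2 hearts farthest from the median.

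In skeletal muscle none of the 9 effects on the 3 genes was called by limma, and none had an unadjusted p under 0.05, where 0.104%, 0.857% and 1.65% of all genes were called for WY14643, GW501516 and rosiglitazone. The levels varied widely within every group. Mogat1 ran from 4.58 to 9.08 over the 75 muscle arrays, Dgat2 from 7.85 to 12.69 and Dgat1 from 7.69 to 10.84, and the median SD within a group was 1.20, 1.29 and 0.96, against 0.62, 0.07 and 0.09 in liver. For WY14643, GW501516 and rosiglitazone, the effects were 0.70, -0.53 and 0.38 for Mogat1 (SE 0.39), 0.57, -0.07 and 0.45 for Dgat2 (SE 0.39), and 0.56, -0.18 and 0.33 for Dgat1 (SE 0.29).

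This spread went with adipocyte markers, and as closely with brown adipocyte markers. Over the 75 muscles, with group means removed, r with adipocyte markers was 0.91 for Mogat1, 0.92 for Dgat2 and 0.92 for Dgat1. With brown adipocyte markers it was 0.90, 0.94 and 0.92. With hepatocyte markers r was 0.39, 0.20 and 0.31 in that order (adjusted permutation p = 0.00169, 0.173 and 0.0171). Spearman rho there was 0.32, 0.19 and 0.24 (adjusted permutation p = 0.0154, 0.208 and 0.0839). The muscle ranked 1 for hepatocyte markers, WY14643 day 4 replicate 3, had Mogat1 at 8.82. The part of liver RNA in the muscle levels was not tested. Adipoq, which encodes the fat cell hormone adiponectin, was at percentile 93.7 of the muscle arrays, Retn at 80.2 and Lep at 56.1, while 7 myofibre markers kept a mean between 12.94 and 13.45. The arrays were cut at the largest gap in the middle of the range of the mean of the 3 adipocyte markers, a point taken from these same data. The lower set was of 32 arrays, from 6.43 to 8.40, and the higher set of 43, from 8.78 to 11.57. The higher set held 17 of 30 vehicle, 11 of 15 WY14643, 6 of 15 GW501516 and 9 of 15 rosiglitazone muscles, and all 5 WY14643 muscles of day 4.

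The median level in the lower and higher sets was 5.17 and 7.35 for Mogat1, 9.31 and 11.63 for Dgat2, and 8.02 and 9.62 for Dgat1. Correlations within a set used levels from which group means were not removed, unlike those over deviations from group means. Compound and day therefore enter both the correlation and its permutation p. That p also takes no account of how the cut was chosen. Within the higher set, Pearson r with the adipocyte markers was 0.86 for Mogat1, 0.83 for Dgat2 and 0.83 for Dgat1 (Spearman rho 0.88, 0.89 and 0.85; permutation p = 1e-05 for each, the smallest that 100000 permutations can give; 2e-05 adjusted over 6 relations), and without 2 arrays 0.84, 0.82 and 0.82. Within the lower set, r was 0.09 for Mogat1, 0.33 for Dgat2 and 0.47 for Dgat1 (adjusted permutation p = 0.64, 0.0802 and 0.0103). Spearman rho was 0.35, 0.22 and 0.45 there (adjusted permutation p = 0.0564, 0.228 and 0.0142), and r without the 2 farthest arrays was 0.52, 0.28 and 0.38, so the value for Mogat1 depends on 2 arrays. With adipocyte and hepatocyte markers as covariates the muscle effects lay between -0.08 and 0.15 for Mogat1, between 0.02 and 0.34 for Dgat2 and between 0.08 and 0.14 for Dgat1, and none was called.

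**Figure D5:**
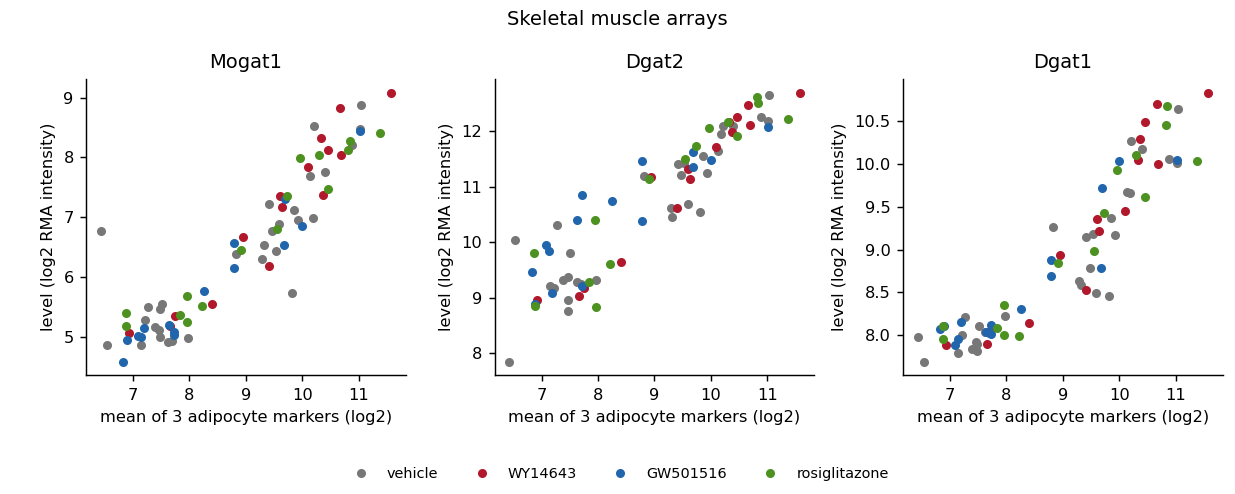
Level of each gene (log2 RMA intensity, vertical axis) against the mean of 3 adipocyte markers (log2, horizontal axis) in the 75 skeletal muscle arrays, coloured by compound. Arrays up to 8.40 in the markers have lower median levels than those from 8.78, with overlap in level for Mogat1 and Dgat2. From 8.78 each gene climbs with the markers. Up to 8.40, r with the markers is 0.09 for Mogat1, 0.33 for Dgat2 and 0.47 for Dgat1.

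No other gene of triglyceride turnover that was called in liver moved as far as Mogat1 after the same compound. Of 37 other genes on lists of glycerol supply, acylation, phosphatidate hydrolysis and lipolysis, 11 rose and 2 fell in liver after WY14643, 15 rose and 2 fell after GW501516, and 11 rose and 4 fell after rosiglitazone, where 11.2%, 13.9% and 16.2% of all genes were called. The median effect over the 37 was 0.00, 0.11 and 0.05, against -0.01, -0.01 and -0.02 over all genes. In heart 0, 3 and 2 rose and 0, 1 and 2 fell (1.44%, 4.17% and 7.51% of all genes called). In kidney 2, 6 and 1 rose and 1, 1 and 0 fell (1.74%, 6.79% and 1.52%), and in skeletal muscle 1 rose after GW501516 and no other gene passed (0.104%, 0.857% and 1.65%).

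On the side of glycerol supply in liver, Aqp3 (0.43 ± 0.08) and Aqp7 (0.34 ± 0.08), channels for glycerol, rose after WY14643, and Gpd1l, related to glycerol phosphate dehydrogenase, rose after GW501516 (0.40 ± 0.06) and rosiglitazone (0.35 ± 0.06). Gpat3, which starts the route from glycerol phosphate, rose after WY14643 (0.39 ± 0.13). Its call ended with array weights (0.31) and in 10 of the fits that left out 1 mouse, with the lowest value, 0.31, without WY14643 day 4 replicate 2. Of 10 acyltransferases of that route, 2, 4 and 2 rose and 1, 2 and 2 fell after the 3 compounds, again beside 11.2%, 13.9% and 16.2% of all genes. Of 6 phosphatidate phosphatases, which supply diacylglycerol, 0, 5 and 3 rose, among them Lpin1 after GW501516 (0.44 ± 0.15) and rosiglitazone (0.80 ± 0.15). The GW501516 call on Lpin1 ended in 14 of the fits that left out 1 mouse (lowest value 0.40).

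Of 14 lipases and their regulators, 6, 4 and 5 rose in liver and 1, 0 and 2 fell, where 11.2%, 13.9% and 16.2% of all genes were called. Abhd6, a monoacylglycerol lipase, rose after all 3 compounds (0.53, 0.83 and 0.65; SE 0.06 each), as did Pnpla2, the lipase that starts triglyceride breakdown (0.32, 0.61 and 0.56; SE 0.07). Lpl, lipoprotein lipase, rose after WY14643 (0.52 ± 0.15), and Mgll (0.47 ± 0.06) and Lipe (0.44 ± 0.09), which act on monoacylglycerol and diacylglycerol, rose after GW501516. After rosiglitazone G0s2, an inhibitor of Pnpla2, rose (0.94 ± 0.21) and Pnpla3 fell by 1.03 (SE 0.34). With the clock components as covariates, all 6 genes named for WY14643 stayed called, 4 of 6 did for GW501516 and 0 of 6 for rosiglitazone. Over all 18193 genes, that fit called 2135, 485 and 31 in liver for the 3 compounds, against 2044, 2532 and 2946 without the components. In it Lpin1 turned to -0.44 after GW501516 and -0.35 after rosiglitazone.

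Outside liver, Mgll rose in kidney after WY14643 (0.77 ± 0.06) and GW501516 (0.87 ± 0.06), together with Abhd6 after WY14643 (0.23 ± 0.05), and G0s2 (0.66 ± 0.12) and Lipe (0.61 ± 0.10) after GW501516. Ces1f, a carboxylesterase, fell by 0.23 in kidney after WY14643 (SE 0.05), and G0s2 rose there after rosiglitazone (0.51 ± 0.12). The Lipe value in kidney was 0.24 and not called in the mean of its probe sets, and the rosiglitazone call on G0s2 ended with clock components (0.65, limma adjusted p = 0.0721). In heart Lipe rose after GW501516 (0.45 ± 0.12) and rosiglitazone (0.41 ± 0.12), and so did Mgll (0.17 and 0.16; SE 0.05), while G0s2 fell by 0.33 after GW501516 (SE 0.09) and Plpp3 fell by 0.12 after rosiglitazone (SE 0.03). The Lipe calls in heart each ended without 1 heart, GW501516 day 15 replicate 1 (0.37) and rosiglitazone day 4 replicate 1 (0.24), the 2 hearts highest in adipocyte markers. They also ended with clock components (0.43 and 0.49, limma adjusted p = 0.292 and 0.29) and in the mean of probe sets (0.17 and 0.22). The rosiglitazone call on Mgll in heart ended without day 4 replicate 1 (0.13) or day 15 replicate 1 (0.14), and that on Plpp3 with clock components (0.03). In skeletal muscle Agpat3, which acylates lysophosphatidate, rose after GW501516 (0.29 ± 0.05).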

How the data were processed

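RNA of 4 tissues was hybridized to Affymetrix mouse arrays after amplification with NuGEN kits, per the labels' protocols. The deposited values are log2 intensities made by the authors with RMA in Partek, per the submitters' processing notes; versions and build are not given in the sources used here. RMA sets all arrays of a run to like distributions, so levels are relative within a tissue, and medians differ between tissues (from 4.98 to 7.44 over the arrays). All 300 columns were used and none was identical to another. The number of arrays limits the precision.

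Of 45101 probe sets, 64 controls, 932 with several genes and 9160 with no gene were left out. The remaining 34945 gave 18193 genes, each by its probe set with the highest mean; 34741 probe sets were named through gene IDs and 204 kept the platform's symbol. Per tissue, limma 3.58.1 in R 4.3.3 fitted 12 groups (63 residual degrees of freedom, eBayes with trend). The fit was tested on simulated data. Liver minus other tissue was fitted on differences within a mouse; deviations of the same mouse correlated across tissues with medians from 0.10 to 0.17.

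Genes were named by a rule: the members everywhere, up to 6 called genes of the lists per liver comparison and up to 3 elsewhere by size of effect, and the 5 genes most correlated with each member in liver. The members and the lists were chosen with earlier results of these data known. Alternatives were the mean of all probe sets, the other probe set, leaving out genes under the 40th percentile, quantile normalization, array weights, a replicate block, no day 8, leaving out each mouse, clock components, and markers of other tissues.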

Additional observations from a re-analysis of the deposited data

Results flagged for a closer look

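Over 144 groups of the 3 genes, 13 held an array far from the others by Dixon's criterion; chance alone flags about 1 in 20 groups. In liver these were Mogat1 at 8.17 in GW501516 day 15 replicate 1 (next 10.28), Dgat1 at 9.71 in vehicle day 4 replicate 4 and Dgat1 at 9.79 in GW501516 day 4 replicate 3. In heart they were Mogat1 at 7.90 in vehicle day 4 replicate 8, at 10.06 in rosiglitazone day 4 replicate 1 and at 8.19 in rosiglitazone day 8 replicate 4, and Dgat1 at 11.74 in rosiglitazone day 4 replicate 1, at 10.73 in vehicle day 8 replicate 5 and at 11.05 in GW501516 day 15 replicate 1. Dgat2 was low in heart at 13.39 in GW501516 day 15 replicate 3 and at 13.29 in rosiglitazone day 15 replicate 1, and in kidney it was high at 11.54 in WY14643 day 4 replicate 2 and low at 11.01 in GW501516 day 8 replicate 1.

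The effect on Mogat1 differed between liver and another tissue in 7 of the 9 comparisons of the same mice, each by its own test. Liver minus heart was 3.91 for WY14643 and 2.65 for GW501516. Liver minus kidney was 4.08 for WY14643, 2.71 for GW501516 and 1.22 for rosiglitazone, and liver minus skeletal muscle was 3.67 for WY14643 and 3.43 for GW501516. The rosiglitazone difference from kidney was not called with the clock components as covariates. Of all genes, 6.52%, 10.2% and 12.5% were called for liver minus heart after WY14643, GW501516 and rosiglitazone. The shares were 4.69%, 8.18% and 7.22% for liver minus kidney, and 3.52%, 4.26% and 6.08% for liver minus skeletal muscle.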

How the results depend on the processing

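Of 381 alternative values for the 36 mean effects of the 3 genes, 365 kept the side of the threshold, and also the direction where either fit called the gene. Effects called in neither fit counted as kept even where the sign turned, as for Mogat1 in heart after GW501516 with kidney markers among the covariates. Of 12 mean effects per gene, 5 were called for Mogat1, 6 for Dgat2 and 0 for Dgat1. Over these 12 comparisons, the share of all genes called ran from 0.104% in skeletal muscle after WY14643 to 16.2% in liver after rosiglitazone. With 2 clock components as covariates (cause not tested), calls ended for Mogat1 in liver after rosiglitazone (1.24) and for Dgat2 in liver after GW501516 (-0.0060, sign turned) and rosiglitazone (0.028), in heart (0.035 and 0.016) and in kidney (0.024 and 0.058). In that fit Dgat2 also turned sign in liver for WY14643 day 4 (0.012) and vehicle day 8 minus day 4 (0.017), and in heart for GW501516 day 8 (-0.042), rosiglitazone day 8 (-0.0060) and day 15 (-0.055), as did Lpin1 in liver (-0.44 and -0.35 after GW501516 and rosiglitazone) and Plpp3 in heart after rosiglitazone (0.034). Dgat2 in kidney after rosiglitazone lost its call without day 8 (0.080), and after GW501516 it ranged from 0.11 to 0.15 when 1 mouse was left out. Dgat1 in liver after rosiglitazone became called with the mean of its probe sets (0.13), its other probe set (0.17) or dim genes left out (0.081), and ranged from 0.070 to 0.093 when 1 mouse was left out.

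Same-numbered treated and vehicle arrays did not deviate together on the median (0.01, with 44 of 180 correlations over 0.1), so numbers were not taken as pairs. The correlations ran from -0.65 to 0.54. In skeletal muscle on day 4 most were over 0.1 for GW501516 (from -0.08 to 0.32) and rosiglitazone (from -0.25 to 0.28). With the replicate block Mogat1 in kidney after GW501516 was 0.15 and no longer called; no other call on a mean effect of the 3 genes changed. On single days the block ended the day 15 calls of Mogat1 in kidney after WY14643 (0.29) and GW501516 (0.24) and its day 8 call in liver after rosiglitazone (0.95). Without day 8, calls also ended for Lpl, Aqp7 and Pnpla2 in liver after WY14643, Lpin1 after GW501516, Lpin1, Pnpla3 and Gpd1l after rosiglitazone, all list genes named in heart, G0s2 in kidney after rosiglitazone and Agpat3 in skeletal muscle. The block ended those of Lpl and Gpat3 in liver, G0s2 in kidney after rosiglitazone, and Lipe, Mgll and G0s2 in heart; the mean of probe sets ended those of Lipe in heart and kidney.

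Counts of called genes moved by over 1.5 times as follows. In liver, GW501516 gave 2532 (1221 without day 8, 485 with clock components) and rosiglitazone 2946 (1543 and 31). In heart, WY14643 gave 262 (680 with array weights, 72 without day 8, 174 with clock components, 470 with kidney markers), GW501516 759 (1267, 97 and 221, and 501 with the block) and rosiglitazone 1367 (2070, 210 and 251). In kidney, WY14643 gave 316 (634 with array weights), GW501516 1236 (409 with the block, 744 without day 8) and rosiglitazone 276 (737 with array weights, 55 without day 8). In skeletal muscle, WY14643 gave 19 (34 with array weights, 61 with the block, 2 without day 8), GW501516 156 (458 with array weights, 20 without day 8, 53 with clock components) and rosiglitazone 301 (643, 629 with the block, 9 and 84). Leaving out 1 mouse moved the count to between 113 and 455 in heart and between 10 and 81 in skeletal muscle after WY14643. The wide spread in skeletal muscle limits what these arrays can show there.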
